A study of Mus musculus with 4 samples.

Results

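The CatSper subunit genes encode the calcium channel of the sperm tail. The genes described here are 9 CatSper subunit genes, Catsper1, Catsper2, Catsper3, Catsper4, Catsperb, Catsperd, Catsperg1, Catsperg2 and Catsperz, together with Kcnu1, which encodes a sperm potassium channel and no CatSper subunit. They were found by symbol in a deposited table of 53465 genes, and all 10 passed the filter on low counts that left 21822 genes for testing. Catsper1, Catsper3, Catsper4 and Catsperb, with 0 to 9 counts per cKO library, would not have passed on those libraries alone. They were tested because their wt counts were high enough, so a call of higher was hardly open to them. The same goes for some genes of the related lists below, among them Slc9c1, Gapdhs, Kcnmb3 and Slco6c1. Testes were taken at postnatal day 18 from mice of a mixed C57BL/6 and ICR background. RNA was sequenced from 2 wild-type (wt) libraries and 2 libraries of Sympk cKO mice, in which Stra8-Cre deletes Sympk. Stra8-Cre is a recombinase driven by the promoter of a gene that premeiotic male germ cells express, so the deletion is directed to germ cells. The Sympk product, symplekin, holds together the proteins that cut new mRNA and add its poly(A) tail. The labels name no further allele, call the controls wild type, and do not say how many animals stand behind a library, so p-values cover no more than the spread among these 4 libraries, part of which may be technical.

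CatSper is a weakly voltage-gated calcium channel that opens when the sperm interior turns alkaline. It sits in the membrane of the principal piece of the flagellum, and its calcium entry switches the tail to the vigorous beat called hyperactivation. Each pore is built from 4 different proteins, encoded by Catsper1 to Catsper4, and mice lacking any of them make sperm that cannot hyperactivate and are infertile. Auxiliary subunits with large extracellular domains (beta, gamma, delta and epsilon) and small cytoplasmic ones (such as zeta) assemble around the pore. Kcnu1 encodes SLO3, the alkaline-activated potassium channel that sets the sperm membrane potential alongside CatSper. In the testis these genes belong to spermatocytes and spermatids. In mice of this age the earliest germ cells are reaching the end of meiosis.

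All 10 genes were called lower in the cKO testes. Of all genes tested, 34.3% were called lower and 29.2% higher, 63.4% in all, by edgeR's quasi-likelihood test with adjusted p under 0.05. The median fitted log2 fold change of the 10 genes was -5.78, or -5.08 with Catsper1, which had 0 counts in both cKO libraries, set at its bound. Over all genes tested the median was -0.02. A call with a fitted value of -4 or below, a limit chosen after the values were seen, was found for 6 of the 10 genes and for 9.23% of all genes tested. In whole testis, fewer cells of a type and less RNA per cell cannot be told apart. With counts scaled to a list of Sertoli cell genes, 239 genes were called higher and 14450 lower in place of 6368 and 7477. All 10 genes were still called lower, but this scale lowers values, so none of them could have turned on it.

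The libraries held 32730868 to 41584389 counts. Levels are given as CPM, counts per 1000000 after TMM scaling, on which 3 counts are 0.070 to 0.084 CPM. Sympk itself stood at 225.2 and 192.0 CPM in wt and 171.5 and 173.2 CPM in cKO, and its fitted value of -0.28 on the log2 scale (SE 0.141) missed the threshold (adjusted p = 0.132, edgeR). The deleted part of the gene is not given in the labels, so its summed counts do not check them. All 8 markers of early meiotic prophase fell and so did all 10 of pachytene and later spermatocytes. The summed level of the former was 2097 to 2317 CPM in wt and 155.1 to 241.5 CPM in cKO, and that of the latter 7309 to 7526 and 176.6 to 218.4 CPM. Sertoli markers rose in 9 of 10 cases (summed 758.3 to 840.3 CPM in wt, 1948 to 2180 in cKO), and Leydig markers in 4 of 6 (267.8 to 397.5 and 689.6 to 743.0 CPM). Peritubular, endothelial and macrophage markers rose in 9 of 9 (581.0 to 618.9 and 1119 to 1241 CPM). Of 8 spermatogonial markers, 4 rose and 1 fell (320.7 to 385.6 and 452.0 to 531.0 CPM). With counts scaled to Sertoli genes 0 of the Leydig, peritubular group and spermatogonial markers were higher, and 1, 2 and 4 of them were lower. Of 12 spermatid markers, 8 were tested and 5 fell (70.6 to 71.1 CPM in wt, 7.04 to 7.80 in cKO), and the defining late markers Tnp1, Tnp2, Prm1 and Prm2 held 0 to 8 counts in each of the 4 libraries. Mitochondrially encoded genes took 4.93% and 4.01% of counts in wt and 10.2% and 8.81% in cKO, and the 10 genes were still called lower with those left out. The part of the marker shifts in the CatSper values was not tested.

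Stretches of promoter sequence are shown for 3 genes that bracket the results below: Catsperg1, the CatSper gene with the most counts left in cKO, Catsperb, with the deepest fall among those that kept counts, and Catsper2, the only pore gene with a high level in wt. Each is the 250 bases before the annotated start, 5′ to 3′ on the gene's strand, from RefSeq on GRCm38.p6. Capitals mark the letters AACNG on either strand, the core that MYB proteins bind, and in Catsperg1 also an X-box palindrome of the kind RFX factors bind.
Catsperg1 (chr7:29214034-29214283, minus strand): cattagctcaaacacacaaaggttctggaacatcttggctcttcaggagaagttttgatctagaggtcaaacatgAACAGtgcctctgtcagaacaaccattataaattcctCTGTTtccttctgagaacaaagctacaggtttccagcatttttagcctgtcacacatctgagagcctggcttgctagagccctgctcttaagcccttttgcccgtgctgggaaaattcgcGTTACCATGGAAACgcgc
Catsperb (chr12:101404423-101404672, plus strand): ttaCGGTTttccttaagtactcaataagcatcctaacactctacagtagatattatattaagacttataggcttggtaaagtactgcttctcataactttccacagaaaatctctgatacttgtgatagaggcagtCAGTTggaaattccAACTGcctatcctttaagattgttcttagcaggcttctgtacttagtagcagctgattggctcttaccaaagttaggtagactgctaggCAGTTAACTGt
Catsper2 (chr2:121413793-121414042, minus strand): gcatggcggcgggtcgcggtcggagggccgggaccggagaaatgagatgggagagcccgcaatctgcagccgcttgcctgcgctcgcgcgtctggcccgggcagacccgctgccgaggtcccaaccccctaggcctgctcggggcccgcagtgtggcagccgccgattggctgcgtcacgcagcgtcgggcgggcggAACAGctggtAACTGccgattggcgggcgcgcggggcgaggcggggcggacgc
With the start as 1 and the base before it as -1, Catsperg1 has the X-box match from -18 to -5. The window of its other annotated start, not printed, holds no such match. Catsperb has a pair of cores on opposite strands side by side from -11 to -2, and Catsper2 has a pair of cores on the same strand that begin at -53 and -43. The gene coordinates given below for Catsperb begin at 101404653, inside its printed stretch. By those coordinates the Catsperb pair lies within the gene.

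RefSeq promoter windows of 300 bases, 250 before to 50 after a start, were matched for 7 of the 10 genes, as 9 windows because Catsperd and Catsperg1 have 2 starts each. Catsper1, Catsperg2 and Kcnu1 were not matched. AACNG occurred in 7 of the 9 windows, those of all matched genes but Catsper3 and Catsper4, and in 80.3% of all 32851 windows. Its palindrome AACNGTT, which contains that core on both strands, was in none of the 9 windows and in 4.45% of all. The X-box palindrome, a pattern added after the sequences were seen, was in 1 of the 9 windows and in 0.451% of all, and the shorter GTTGCC was in 0 and in 12.5%. The cyclic AMP response element TGACGTCA was in 0 of the 9 windows and in 1.79% of all. Its core TGACG was found for Catsper2 and Catsperd, in 2 of the 9 windows and in 20.8% of all, and TATAAA for Catsperg1 alone, in 13.6% of all. Both strands were searched, and a match is a description of letters and not of binding.

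**Figure D1:**
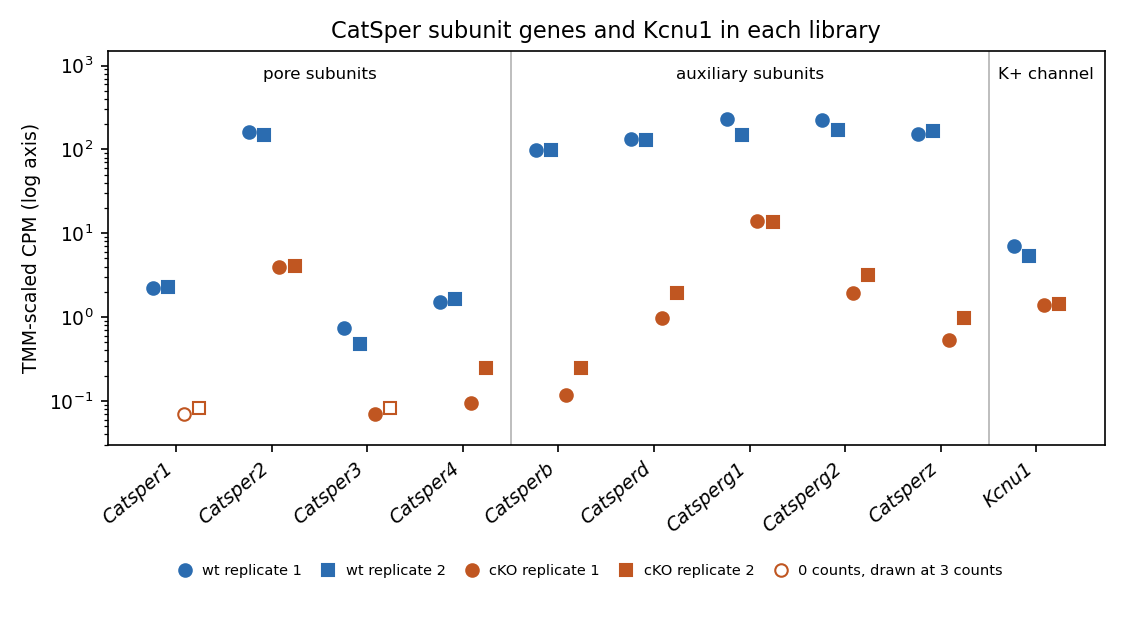
TMM-scaled CPM on a log axis of each CatSper gene and Kcnu1 in every library. Blue marks are wt, orange marks cKO, circles replicate 1 and squares replicate 2, and open marks are libraries with 0 counts drawn at 3 counts. Each gene has both wt libraries above both cKO libraries. How often that holds over all genes was not worked out, so this separation does not set these genes apart. Of all genes tested, 34.3% were called lower by edgeR. Catsper2 and the 5 auxiliary genes lie between 98.8 and 232.0 CPM in wt, while Catsper1, Catsper3, Catsper4 and Kcnu1 lie between 0.478 and 7.03 CPM.

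The pore genes fell from very unequal levels. Catsper2 (ENSMUSG00000033486, chromosome 2, 121392631 to 121413792, minus strand) was the only pore gene with a high level, at 162.4 and 147.8 CPM in wt and 3.97 and 4.08 CPM in cKO. Its mean went from 155.1 ± 10.3 to 4.03 ± 0.0779 CPM (SD, n = 2), a log2 fold change of -5.27 (SE 0.159, adjusted p = 1.2e-05, edgeR). The 2 libraries of each group lay close together and 2.60% of the wt level was left. The exons of Catsper2 share 18 bases with Pdia3, a gene on the other strand that held 21422 to 31478 counts per library. Whether counting used the strand is not given in the sources used here, so reads from those 18 bases cannot be told apart.

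Catsper1 (ENSMUSG00000038498, chromosome 19, 5335741 to 5344153, plus strand), which encodes the pore protein with the histidine-rich N-terminus, held 85 and 81 counts in the wt libraries and 0 in both cKO libraries. In wt that is 2.25 and 2.28 CPM, and with a floor of 3 counts per library it was at least 29.7-fold lower in cKO. No cKO read was counted on it, and the wt libraries were nearly equal. Its fitted value passed (adjusted p = 3.24e-04, edgeR), but with a group at 0 the fitted size depends on the prior count, so the bound is given.

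Catsper3 and Catsper4, whose products complete the pore, were near the limit of detection. Catsper3 (ENSMUSG00000021499, chromosome 13, 55784568 to 55808998, plus strand) held 28 and 17 counts in wt and 3 and 0 in cKO. The ratio of wt to cKO was 16.2, with an exact 95% counting interval of 5.20 to 81.6 (adjusted p = 0.00726 in the edgeR fit). All 3 of its cKO counts were in replicate 1. Its call was lost without wt replicate 1 (adjusted p = 0.0551), and its fitted value went from -3.91 to -7.49 on the log2 scale when cKO replicate 1 was left out, where the remaining cKO library is at 0.

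Catsper4 (ENSMUSG00000048003, chromosome 4, 134211970 to 134227383, minus strand) held 57 and 59 counts in wt and 4 and 9 in cKO, or 1.51 and 1.66 against 0.0934 and 0.247 CPM. This was a change of -3.23 on the log2 scale (SE 0.489, adjusted p = 0.00192, edgeR). The value was -2.66 without cKO replicate 1 and -4.03 without cKO replicate 2. Both cKO libraries kept some counts, in contrast to Catsper1.

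The auxiliary genes stood at 98.8 to 232.0 CPM in the wt libraries. Catsperb (ENSMUSG00000047014, chromosome 12, 101404653 to 101626009, plus strand), which encodes the beta subunit with its large extracellular domain, was at 98.8 and 99.4 CPM in wt and 0.117 and 0.247 CPM in cKO. That is 7271 counts in the wt libraries against 14 in the cKO libraries, 5 and 9 in each, a log2 fold change of -9.10 (SE 0.286, adjusted p = 1.2e-05, edgeR). It was the deepest fall among the members with counts in cKO, with 0.183% of the wt level left. The ratio of wt to cKO was 561.3, with an exact 95% counting interval of 334.3 to 1027.2.

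Catsperz (ENSMUSG00000050623, chromosome 19, 6922426 to 6925380, minus strand) encodes the zeta subunit, which keeps the CatSper stripes along the flagellum continuous. It was at 154.3 and 167.4 CPM in wt and 0.537 and 0.986 CPM in cKO, with a log2 fold change of -7.74 (SE 0.294, adjusted p = 1.49e-05, edgeR). Its fall was the next deepest, with 0.474% left. Its exons share 587 bases, 46.5% of their length, with Kcnk4 on the same strand, and Kcnk4 itself held 0 to 3 counts per library.

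Catsperd (ENSMUSG00000040828, chromosome 17, 56628143 to 56664456, plus strand), whose delta subunit is needed for the channel to assemble stably, was at 131.9 and 128.9 CPM in wt and 0.981 and 1.92 CPM in cKO. This was a change of -6.50 on the log2 scale (SE 0.323, adjusted p = 2.77e-05, edgeR). In cKO, 1.11% of its wt mean was left.

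The gamma subunit has a pair of gene copies in the mouse, both on the minus strand of chromosome 7, and they parted in the cKO libraries. Catsperg1 (ENSMUSG00000049676, 29181321 to 29214035) was at 232.0 and 150.2 CPM in wt and 14.1 and 13.7 CPM in cKO. Catsperg2 (ENSMUSG00000049123, 29697219 to 29727032) was at 225.2 and 168.5 CPM in wt and 1.92 and 3.15 CPM in cKO. In wt the copies were close and shared the higher level of replicate 1, whereas in cKO Catsperg1 stood above Catsperg2 in both libraries.

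The log2 fold change was -3.78 for Catsperg1 (SE 0.243, adjusted p = 6.78e-05) and -6.29 for Catsperg2 (SE 0.312, adjusted p = 2.76e-05), both by edgeR. Catsperg1 kept 7.28% of its wt level and Catsperg2 kept 1.29%. The count of Catsperg1 per count of Catsperg2 was 1.03 and 0.892 in the wt libraries and 7.38 and 4.35 in the cKO libraries. This ratio within a library does not depend on scaling, and its groups did not overlap. The difference between the copies was not tested. An exact permutation test of 2 against 2 libraries cannot go below p = 0.333. Their longest coding transcripts (GENCODE M21) are 96.5% identical over 3658 aligned bases, and 19.8% of the 100-base windows of Catsperg2 occur unchanged in Catsperg1, so counts of either copy depend on how shared reads were assigned.

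Kcnu1 (ENSMUSG00000031576, chromosome 8, 25849623 to 25937939, plus strand) fell least of the members. It was at 7.03 and 5.37 CPM in wt and 1.38 and 1.42 CPM in cKO, a log2 fold change of -2.14 (SE 0.262, adjusted p = 8.32e-04, edgeR). With 22.6% of its wt level left, it kept a larger share than any CatSper gene. Per count of Catsper2 it held 0.0433 and 0.0364 counts in wt and 0.347 and 0.349 in cKO. Lrrc52, which encodes the auxiliary subunit of this potassium channel and is named after its values were seen, was too low to test, with 2 and 2 counts in wt and 2 and 0 in cKO.

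Levels can be set between genes only per length, for which the deposited FPKM values (counts per kilobase and per 1000000 counts of the library) were used. In wt Catsperz was highest, at 190.8 ± 15.5 FPKM, followed by Catsperd at 47.1 ± 0.341 and Catsper2 at 31.9 ± 1.37 FPKM (SD, n = 2). Catsperg2, Catsperb and Catsperg1 came next, at 15.9 ± 2.88, 13.7 ± 0.386 and 12.4 ± 3.47 FPKM, and their libraries overlapped. Kcnu1 was at 1.28 ± 0.212 and Catsper1 at 1.02 ± 0.0346 FPKM. Catsper4 at 0.605 ± 0.0559 and Catsper3 at 0.298 ± 0.0836 FPKM were lowest. Among the other neighbours in this order the libraries did not overlap. The order holds for the lengths that the deposited counts and FPKM imply, which were 781 bases for Catsperz and 14232 for Catsperg1 against 1262 and 7044 annotated exonic bases in GENCODE M21. With the annotated lengths Catsper2 (42.0 CPM per kilobase) came above Catsperd (36.3), and Catsperg2 (28.0) and Catsperg1 (27.1) above Catsperb (17.9), with the other places as before.

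The pore and auxiliary genes held unequal shares of the summed FPKM of the 9 CatSper genes. The 4 pore genes took 11.3% and 10.3% of it in the wt libraries and 29.9% and 23.5% in the cKO libraries. Nearly all of the pore share was Catsper2, with 10.7% and 9.68% in wt and 27.5% and 21.1% in cKO. Among auxiliary genes, Catsperz went from 58.5% and 63.1% to 21.4% and 29.4%, while Catsperg1 went from 4.82% and 3.11% to 31.0% and 22.4%. The summed level fell from 308 and 320 to 3.35 and 4.79 FPKM, so these are shares of a small remainder in cKO. The shares depend on the lengths used. With the annotated exonic lengths Catsper2 took 15.3% and 14.6% in wt and 25.8% and 22.2% in cKO. Catsperz then went from 42.4% and 48.4% to 10.2% and 15.7%, and Catsperg1 from 11.4% and 7.78% to 48.1% and 39.1%, in the same directions.

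**Figure D2:**
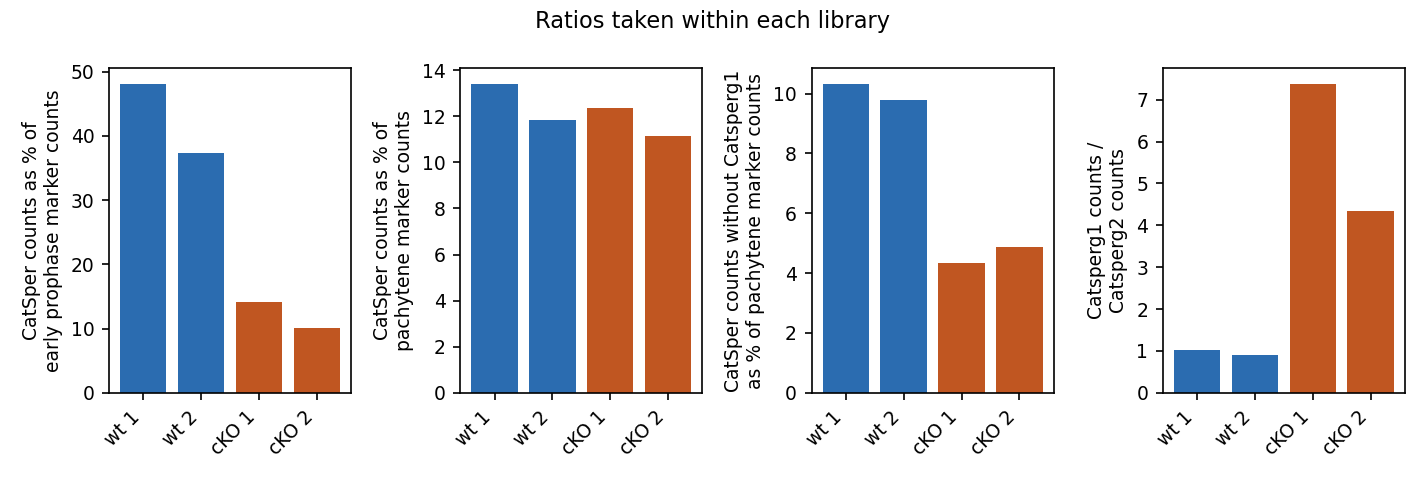
Ratios of raw counts taken within each library, on linear axes from 0, with wt in blue and cKO in orange. From left to right are the summed counts of the 9 CatSper genes as a percentage of those of 8 early meiotic prophase markers, the same against 10 pachytene and later markers, the latter without Catsperg1, and Catsperg1 counts per Catsperg2 count. The groups overlap only in the second panel. In the third, Catsperg1 was left out of the CatSper sum alone because of its large share in cKO, which by itself lowers the cKO values most.

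The CatSper genes were also set against germ cell markers inside each library, which removes the scaling. These ratios were chosen after the values were seen and carry no test. Per 100 counts of the 8 early meiotic prophase markers, the 9 CatSper genes had 48.1 and 37.4 counts in wt and 14.1 and 10.1 in cKO. Against the 10 markers of pachytene and later spermatocytes they had 13.4 and 11.9 in wt and 12.4 and 11.1 in cKO, so that here the groups overlapped. That overlap rested on Catsperg1, which made up 23.0% and 17.3% of the CatSper counts in wt and 64.8% and 56.3% in cKO. Without it the values were 10.3 and 9.80 in wt and 4.35 and 4.87 in cKO. Catsperg1 was picked for its large share in cKO, and no marker was left out in turn. Leaving it out therefore had to lower the cKO values most. Summed counts weigh most the genes with the most counts. By gene, the median log2 fold change was -6.29 for the 9 CatSper genes, or -5.27 with Catsper1 at its bound. It was -6.79 for the 10 markers of pachytene and later spermatocytes and -3.62 for the 8 early prophase markers. By that median the CatSper genes fell no further than the pachytene and later markers.

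The listed genes of the CatSper complex outside the members fell as well. Of 11 listed symbols, older names included, 7 were in the table and 6 were tested, and all 6 were lower, with a median log2 fold change of -6.91. Without cKO replicate 1, 5 of 7 tested were lower with a median of -6.02, and without wt replicate 1, 6 of 7 with a median of -6.29. Slco6c1, an organic anion transporter found with the mouse CatSper complex, was at 125.7 and 144.4 CPM in wt and 0.187 and 0.548 CPM in cKO (log2 fold change -8.55, SE 0.392). That value was -7.93 without cKO replicate 1 and -9.46 without cKO replicate 2. C2cd6, which encodes the tau subunit that brings the complex to the flagellum, went from 218.6 and 205.8 CPM to 2.10 and 3.59 CPM, a log2 fold change of -6.23 (SE 0.288). Its relative C2cd6b, which GENCODE M21 lists as a noncoding RNA, changed by -7.48 (SE 0.278).

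The epsilon subunit also has a pair of copies. Catspere1 was at 127.3 and 135.2 CPM in wt and 0.350 and 0.657 CPM in cKO, a log2 fold change of -8.04 (SE 0.287). Catspere2, matched by its gene ID because the table gives an older symbol, was at 161.9 and 148.3 CPM in wt and 1.45 and 2.38 CPM in cKO, with a log2 fold change of -6.35 (SE 0.273). The count of Catspere1 per count of Catspere2 was 0.787 and 0.912 in wt and 0.242 and 0.276 in cKO. As copies they too may share reads.

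Efcab9, the calcium sensor that pairs with the zeta subunit, changed least of these genes. It was at 1.29 and 1.35 CPM in wt and 0.304 and 0.493 CPM in cKO. The change of -1.74 on the log2 scale (SE 0.385, adjusted p = 0.00857, edgeR) lost its call without cKO replicate 1 (-1.41, adjusted p = 0.0540). Per length it stood at 0.966 and 1.04 FPKM in wt, against 179.8 and 201.7 FPKM for its partner gene Catsperz. Tmem262, the gene of a further subunit, held 6, 17, 7 and 3 counts and was not tested.

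**Figure D3:**
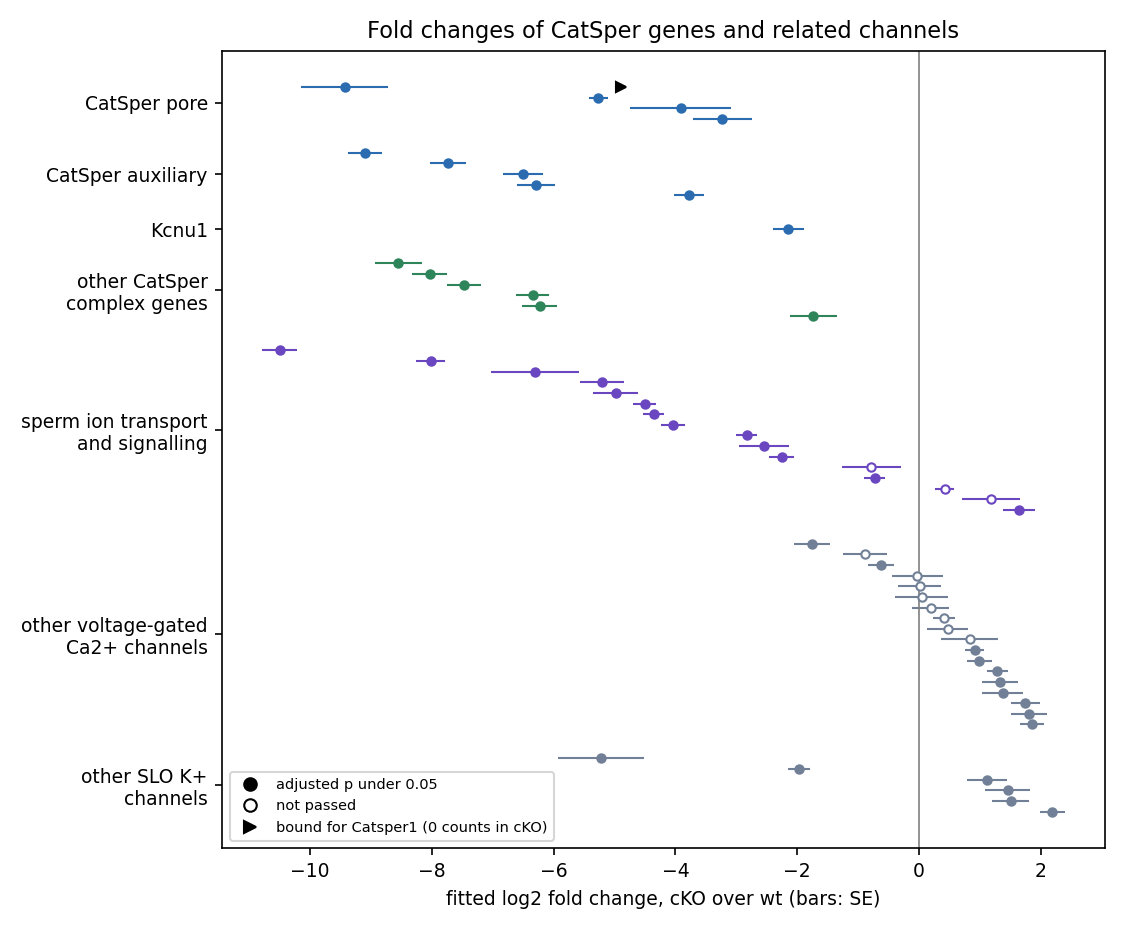
Fitted log2 fold change of cKO over wt with its SE for every tested member and for the tested genes of 4 related lists, 1 gene per point. Filled points passed adjusted p under 0.05, open points did not, and the arrowhead gives the bound for Catsper1. CatSper genes and most sperm genes lie left of 0, while the other calcium and SLO potassium channel genes lie on both sides.

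Genes of sperm ion transport and motility signalling showed a wider spread. Of 18 listed, 16 were tested, 12 were lower, 1 was higher and 3 were not called, and the median log2 fold change was -3.43. With 17 tested, the median was -2.68 without cKO replicate 1 and -2.76 without wt replicate 2. The sperm sodium-proton exchanger gene Slc9c1 went from 111.2 and 118.1 CPM to 0.0467 and 0.110 CPM, 8407 counts in wt against 6 in cKO (log2 fold change -10.50, SE 0.283). That fall was larger than that of any member with counts in cKO. Like Catsperb, Slc9c1 passed the filter only through its wt counts. Ppp3r2, which encodes the regulatory subunit of sperm calcineurin, fell by 8.02 on the log2 scale (SE 0.240). Akap3, a scaffold gene of the fibrous sheath, fell by 5.21 (SE 0.356). Gapdhs, the sperm form of a glycolytic enzyme, held 100 and 67 counts in wt and 0 and 2 in cKO, a ratio of 90.2 with an exact 95% counting interval of 24.6 to 751.3. Hvcn1, a proton channel gene that also serves immune cells and is named after its values were seen, was the one that rose, from 1.96 and 2.90 CPM to 7.83 and 7.37 CPM (log2 fold change 1.65, SE 0.266, adjusted p = 0.00247, edgeR). With counts scaled to Sertoli genes its value was 0.29 (adjusted p = 0.366).

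Listed calcium channel genes outside CatSper did not share the fall as a whole. They are those of voltage-gated channels, with their auxiliary subunits, and the Tpcn genes. Of 20 listed, 18 were tested, 8 were higher, 2 were lower and 8 were not called, and the median log2 fold change was 0.65. With counts scaled to Sertoli genes 0 were higher and 8 lower, so the direction of this list depends on the scale. The members could not have turned in this way. Sertoli scaling lowers values, the other scalings moved the median of all genes to at most 0.20, and the smallest member fall was -2.14. Cacna2d1, an auxiliary subunit gene, rose by 1.86 (SE 0.202), Cacnb2, another, by 1.81 (SE 0.292), and Cacna1d, a pore gene, by 1.75 (SE 0.235), each on the log2 scale. Cacna1h, the pore gene of a T-type channel, went from 232.8 and 135.0 CPM to 45.5 and 63.0 CPM, a log2 fold change of -1.76 (SE 0.295).

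Listed genes of the SLO potassium channels other than Kcnu1, auxiliary subunits included, moved both ways. Of 8 listed, 6 were tested, 4 were higher and 2 lower, with a median log2 fold change of 1.29. Kcnma1, the pore gene of the SLO1 channel, went from 8.61 and 8.16 CPM to 44.0 and 32.6 CPM (log2 fold change 2.19, SE 0.201), against -2.14 for Kcnu1. Kcnt1, a sodium-activated relative, rose by 1.51 (SE 0.308). Kcnmb3 and Kcnmb4, auxiliary subunit genes of SLO1, were the ones that fell, while every tested pore gene of the list rose. Kcnmb3 held 70 and 75 counts in wt and 4 and 0 in cKO, a ratio of 39.2 with an exact 95% counting interval of 15.0 to 145.7, and Kcnmb4 changed by -1.97 on the log2 scale (SE 0.183). All of these passed at adjusted p under 0.05 by edgeR. With counts scaled to Sertoli genes 1, Kcnma1, was higher and 2 were lower.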

How the data were processed

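The authors sequenced paired-end TruSeq libraries of testis RNA, per the labels' protocols, and aligned to GRCm38 with HISAT2, per the submitters' processing notes. How reads were counted, with which strand setting and gene models, is not given in the sources used here. Deposited values are raw counts per gene and FPKM of the 4 libraries, and 0 columns of other samples were left out.

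Raw counts were fitted with edgeR 4.0.16 (R 4.3.3, filterByExpr, TMM factors, quasi-likelihood test, Benjamini-Hochberg adjustment over 21822 genes, threshold 0.05), without a replicate block. CPM is per 1000000 TMM-scaled counts. The deposited FPKM served only to set levels between genes. Intervals of count ratios are exact (scipy 1.17.1) and, like the floor of 3 counts per library, cover counting error only. Copies were aligned with mafft 7.526, and exons and coordinates are from GENCODE M21 on GRCm38. Alternatives used DESeq2 1.42.0, limma-voom 3.58.1, other scalings and filters, the block, and each library left out. The fit was first tested on simulated data in which few genes changed, unlike in these data, so that test does not bear on the scaling. The text names all 10 members, every tested gene of the CatSper complex list and up to 4 called genes with the largest change from each list of related genes. Marker lists are given as counts. Members and lists were chosen with earlier results of these data known. Libraries of a group differed by far more than sampling noise (chi-square per gene 46.7 in wt and 22.1 in cKO).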

Additional observations from a re-analysis of the deposited data

How the results depend on the processing

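All 10 members were called lower under the replicate block, DESeq2, limma-voom, both other size factors, Sertoli scaling, no filter and the leaving out of mitochondrial genes (chosen after seeing the data). With a mean of at least 1 CPM required, 8 were called, since 2 were no longer tested. Leaving out 1 library, which assumes that the lone library varies like the other group, gave 9 to 10 members, the lower value without wt replicate 1, where Catsper3 lost its call (-3.57). Of 128 member values under alternatives, 127 kept their call and 0 reversed. The direction of calls over all genes did depend on scaling. The replicate block gave 12569 genes called in place of 13845, and same-numbered libraries did not deviate together (correlation -0.07 over genes, 2 pairs), so the numbers do not establish pairs. Scaling to the Sertoli list moved the median of all genes to -1.39 and left 3 of the SLO channel genes called in place of 6. Sympk passed without wt replicate 2 (-0.41, adjusted p = 0.0313) and with Sertoli scaling (-1.65, adjusted p = 4.26e-04), and its adjusted p reached 0.755 with library totals alone. Depth limits Catsper1, Catsper3, Catsper4 and Catsperb, whose cKO values rest on 0 to 9 counts per library.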

Other observations

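Tested genes outside the members were ranked by closeness to the median profile of the members over the 4 libraries (Euclidean distance of log2(CPM + 0.5)). Predicted and clone symbols, such as those of the Gm and Rik kinds, were left out. The closest were Morn5 (0.190), Slc22a16 (0.209), Cdkl4 (0.217), Dnali1 (0.408) and Mdh1b (0.428). Morn5 was at 105.9 and 114.9 CPM in wt and 0.631 and 1.29 CPM in cKO. Dnali1, which encodes an axonemal dynein light intermediate chain, was at 138.7 and 116.3 CPM in wt and 0.514 and 1.26 CPM in cKO. The median member profile was 114.2 and 113.2 CPM in wt and 0.740 and 1.19 CPM in cKO. With 4 libraries in 2 groups, likeness of profile describes level and fold only.

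Count ratios between other pairs of CatSper genes also differed between the wt and cKO libraries. The count of Catsper2 per count of Catsperz was 1.05 and 0.883 in wt and 7.39 and 4.14 in cKO. The count of Catsperd per count of Catsperb was 1.34 and 1.30 in wt and 8.40 and 7.78 in cKO. C2cd6 per C2cd6b was 3.21 and 4.10 in wt and 6.92 and 10.1 in cKO. The groups of these 3 ratios did not overlap, the ratios were chosen after their values were seen, and the differences were not tested.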
